A study of Mus musculus with 24 samples.

Results

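DN1 and DN2 are the first and the next of the sorted stages of thymocytes that lack CD4 and CD8, and they were compared here in mice that carry a *TLX1* transgene. The question was which transcripts were higher or lower at DN2 than at DN1 of the same pools of animals. The 4 DN2 arrays were set against the 4 DN1 arrays, 8 of the 24 arrays of the study. A probe set (the group of oligonucleotides that measures 1 transcript on the Affymetrix array) was included where its mean signal was 100 or more at 1 or both of the stages, which held for 14579 of 45037 probe sets. Of these, 11696 reached that level at both stages, 1804 at DN1 alone and 1079 at DN2 alone. A probe set that entered through 1 stage alone had to be low at the other, so a list with more than 3 such genes is also counted over those that reached 100 at both, and a fall or rise among the others is a description.

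The animals were *IgHμ-TLX1Tg Prkdc Scid/Scid* mice (TLX1), labelled HOXSCID by the submitters, of an outbred ICR background and an age of 6 to 8 weeks by the labels. The study's methods and its list of cohorts include younger mice than that, and the methods place the transgene on another outbred background, CD1, before the cross with ICR scid mice. All of them, like the *Prkdc Scid/Scid* mice that served as controls (labelled SCID), carry the scid mutation of *Prkdc*, the catalytic subunit of DNA-dependent protein kinase, which blocks the joining of antigen receptor gene segments. The *IgHμ* promoter that drives the transgene is normally active in B cells, and its activity in thymocytes is described as leaky. Each array stands for a pool of 2 to 5 mice of 1 sex, pools 1 and 4 being female and pools 2 and 3 male, and each pool gave both the DN1 array (CD44+ CD25- cells) and the DN2 array (CD25+ cells that still bear CD44). The labels also call the cells HOX11 positive and B220 and CD3 negative. The control pools, 4 with 2 to 5 mice of 1 sex each, enter only where the stage difference is set against theirs.

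DN1 is the fraction in which the earliest T cell progenitors of the thymus are found, but CD44 without CD25 is also the surface of NK cells, innate-like lymphocytes, myeloid cells, dendritic cells and mast cells. Progenitors that meet Notch ligands on the thymic stroma acquire CD25, divide, and switch on genes of the T cell receptor complex and of V(D)J recombination, while genes of other lineages are shut off as they approach commitment. DN2 is the stage at which that switch begins. In a sorted fraction, a transcript can be lower because fewer cells of a type are present or because each cell holds less of it, and these arrays cannot tell the one from the other.

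The genes of the gate are given as a check of the labels only. *Cd44* had signals of 1650.1, 1268, 1373 and 1913 at DN1 and 104, 114, 85.3 and 119 at DN2 in pools 1 to 4, and *Il2ra*, which encodes CD25, of 1171, 523, 571 and 668 at DN1 and 4688, 5187, 4993 and 4269.6 at DN2. *Cd44* was lower and *Il2ra* higher at DN2 in every pool, with no overlap between the stages. *Thy1*, carried by all thymocytes, is given as a check of the labelled cell type. Its signals were 2828 to 3879.8 at DN1 and 3348 to 4570.2 at DN2. *Cd3e*, a chain of the T cell receptor complex, had signals of 1131 to 2845 at DN1 and 1215 to 3027 at DN2. *Thy1* passed the test as higher at DN2, but not without pool 1 or 3 (0.33 and 0.31).

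Some arrays stood apart from their group. DN1 of pool 2 had 70 of the included probe sets at least 4-fold above the highest of the other 3 DN1 arrays, against 0 to 31 in the other pools. *Rag1*, of the V(D)J recombinase, and *Cd8a*, of more mature thymocytes, were among them. Among the 4 TLX1 pools, the study's list of cohorts gives pool 2 the largest share of cells outside DN1 to DN3. Its part in these signals was not tested. DN1 of pool 3 had 62 probe sets at least 4-fold under the lowest of the others, and DN2 of pool 4 had 71 above and 81 under. A 3'/5' index rises as RNA is less intact. It is how far the array's control probe sets at the 3' end of *Actb* and *Gapdh* exceed those at the 5' end on the log2 scale, averaged over both genes, and it was higher at DN2 in all 4 pools, by 0.16 ± 0.04 (SD, n = 4; exact permutation test over signs of the pool differences, two-sided, p = 0.125, the smallest that 4 pools allow). It moved with the stage, and its part in the results was not tested. With the index as a covariate, the median standard error rose from 0.12 to 0.53 and the calls fell to 0 higher and 34 lower.

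Of the 14579 probe sets, 4487 (30.8%) were higher and 4024 (27.6%) lower at DN2 (limma with the pool as a block, adjusted p under 0.05). Leaving out 1 pool gave 2726 to 4823 higher and 2943 to 4379 lower, the most without pool 2. Taken as 1 probe set per gene, 2772 of 8451 genes (32.8%) were higher and 2274 (26.9%) lower, and among the 7034 genes that reached a mean of 100 at both stages 2305 (32.8%) were higher and 1476 (21.0%) lower. Over all included probe sets the falls were larger than the rises. A fold change of 16 or more was reached by 395 lower probe sets and by 20 higher ones, and the median fold change was 1.88 among the lower and 1.63 among the higher. Of the lower probe sets 1593 entered through DN1 alone, and of the higher ones 900 entered through DN2 alone. These had to be low at the other stage, and fold changes were not compared without them. The 4 DN2 signals all exceeded the 4 DN1 signals in 2152 genes (25.5%) and all lay under them in 1894 (22.4%).

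The scaling of the arrays bears on small differences. The median signal of an array was 19.9 to 23.5 at DN1 and 15.1 to 17.4 at DN2. Centring each array on the median of all its probe sets raised the median difference of the included probe sets from 0.04 to 0.45 and turned the split from 52.7% to 78.2% of calls higher (8139 higher and 2274 lower). Quantile normalization gave 54.5% (4613 and 3855). Centring on the included probe sets, which was added after seeing the data, gave 52.8% (4485 and 4017). Values after centring on all probe sets, called median centring below, are given where a named gene or a list median changed sign. *Ccnd2*, *Ccnd3*, *Ebp*, *Exd2*, *Ezh1*, *Gata3*, *Ikzf2*, *Jak1*, *Lef1*, *Mfng*, *Mvd*, *Nkg7*, *Nrarp*, *Runx3* and *Sc5d*, all lower at DN2, kept their sign and lost their call under it. In what follows a signal is the deposited MAS5 value, listed for pools 1 to 4 in that order, and a difference is log2 DN2 minus DN1 ± its standard error. The 31 lists of genes hold 748 genes, of which 698 had a probe set of their own and 582 were included. The others were under 100 at both stages. Each list count is to be read beside the 32.8% of all genes that were higher and the 26.9% that were lower. Where leaving out 1 pool ended or made a call, or moved a called difference by over 1.5 times, the difference of the other 3 pools closes the paragraph.

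**Figure D1:**
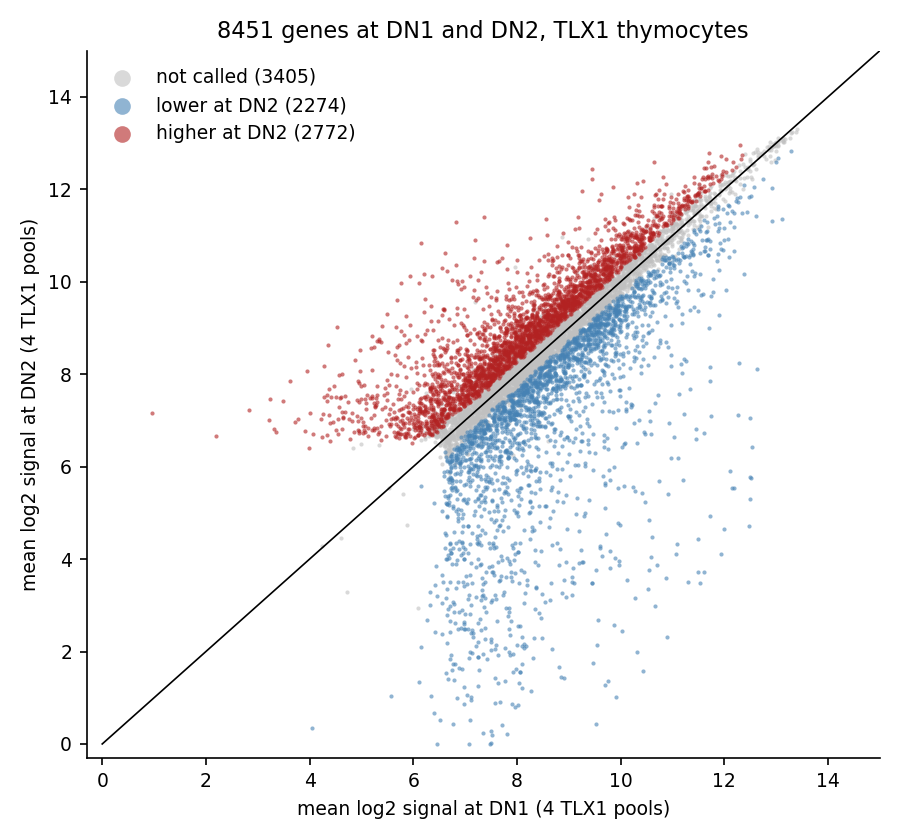
Mean log2 signal of each of 8451 genes at DN1 (x axis) and DN2 (y axis) in 4 TLX1 pools; genes higher at DN2 are red, lower ones blue and those that did not pass the test grey, with the line of equal signal. The 2274 lower genes reach much farther from the line than the 2772 higher ones, down to the floor of 1 (0 on the log2 scale) at DN2. Genes that entered through 1 stage alone, and so had to be low at the other, are included.

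Over all included genes, those of NK cells and cytotoxic lymphocytes had the lowest median of the 30 lists other than the gate. Of 24 such genes, 23 were lower at DN2, 0 were higher and 1 was not called, with a median difference of -5.86. All 23 lower genes lay under DN1 without overlap, as 22.4% of all genes did. Of the 24, 17 entered through DN1 alone, and of the 7 that reached 100 at both stages 6 were lower (median -2.43). Counted over genes at 100 in both stages, the lowest list median was that of MHC class II presentation (-2.92). *Tbx21*, which encodes the T-bet transcription factor, had signals of 919, 432, 1090.3 and 693 at DN1 and 1.11, 1.24, 1.62 and 1.49 at DN2, a difference of -9.10 ± 0.22 (limma, adjusted p = 1.9e-05). *Ncr1*, the NKp46 receptor that marks NK cells, had signals of 3407, 1887, 3679.6 and 3279.6 at DN1 and 11.8, 11.1, 9.61 and 12.2 at DN2, a difference of -8.06 ± 0.20 (limma, adjusted p = 1.9e-05). *Klrd1*, the CD94 chain of NK receptors, had signals of 3148, 1879.8, 3324 and 3625 at DN1 and 10.2, 11.5, 16.2 and 15.9 at DN2, a difference of -7.78 ± 0.16 (limma, adjusted p = 1.5e-05). In all 3 genes every DN1 signal lay far above every DN2 signal. *Eomes*, a transcription factor of NK and memory cells, differed by -7.18 ± 0.12, and *Xcl1*, a chemokine of NK cells, by -7.29 ± 0.15. *Ccl5*, a chemokine of cytotoxic cells, differed by -6.63 ± 0.11. Of the effector genes, *Prf1*, which encodes perforin, differed by -5.76 ± 0.20 and *Gzmb*, which encodes granzyme B, by -4.87 ± 0.22. *Gzma*, which encodes granzyme A, was lower but still high at DN2, with signals of 7487, 7948, 9915 and 10340.0 at DN1 and 2623, 2815, 2575 and 2465 at DN2. *Nkg7*, a protein of cytotoxic granules, had the smallest fall of the 23 lower genes, with signals of 3590.1, 2466, 3716 and 3348 at DN1 and 1900.5, 2452, 2118 and 2446 at DN2, a difference of -0.55 ± 0.17 (limma, adjusted p = 0.038). *Cst7*, a cysteine protease inhibitor, did not pass the test (-0.23 ± 0.23). The signal summed over all 26 genes of the list with a probe set was 39060.0 to 63926 at DN1 and 5978 to 6769.5 at DN2. *Nkg7* did not pass the test without pool 1, 3 or 4 (-0.42, -0.46 and -0.58).

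Genes of innate-like and gamma-delta T cells also fell. Of 12 genes, 10 were lower, 1 was higher and 1 did not pass the test (median -4.10), and of the 6 that reached 100 at both stages 4 were lower. *Il18r1*, a chain of the interleukin-18 receptor, had the smallest p of the whole comparison. Its signals were 5296, 4628, 6391 and 6638 at DN1 and 23.4, 21.9, 28.1 and 32.3 at DN2, a difference of -7.76 ± 0.09 (limma, adjusted p = 7.2e-06). *Cxcr6*, a chemokine receptor of tissue-resident lymphocytes, had signals of 3719, 3009.5, 3731 and 5569.7 at DN1 and 14.6, 15.8, 16.02 and 24.2 at DN2, and *Cd163l1*, the scavenger receptor SCART1 of gamma-delta T cells, of 4957, 4761, 5095 and 9306 at DN1 and 141, 138, 91.7 and 175 at DN2. In none of these genes did the stages overlap. *Maf*, a transcription factor of interleukin-17-producing gamma-delta cells, differed by -5.49 ± 0.18 (limma, adjusted p = 3.8e-05), and *Zbtb16*, which encodes PLZF, the factor of innate-like T cells, by -2.46 ± 0.10 (limma, adjusted p = 6.1e-05). The exception was *Il17rb*, a receptor for interleukin-25, which was higher at DN2 with overlapping signals of 704, 479, 847 and 358 at DN1 and 848, 834, 896 and 683 at DN2, a difference of 0.52 ± 0.17 (limma, adjusted p = 0.044). *Sox13*, a factor of the gamma-delta lineage, did not pass the test (-0.21 ± 0.20). *Il17rb* did not pass the test without pool 1, 2 or 4 (0.60, 0.43 and 0.38).

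**Figure D2:**
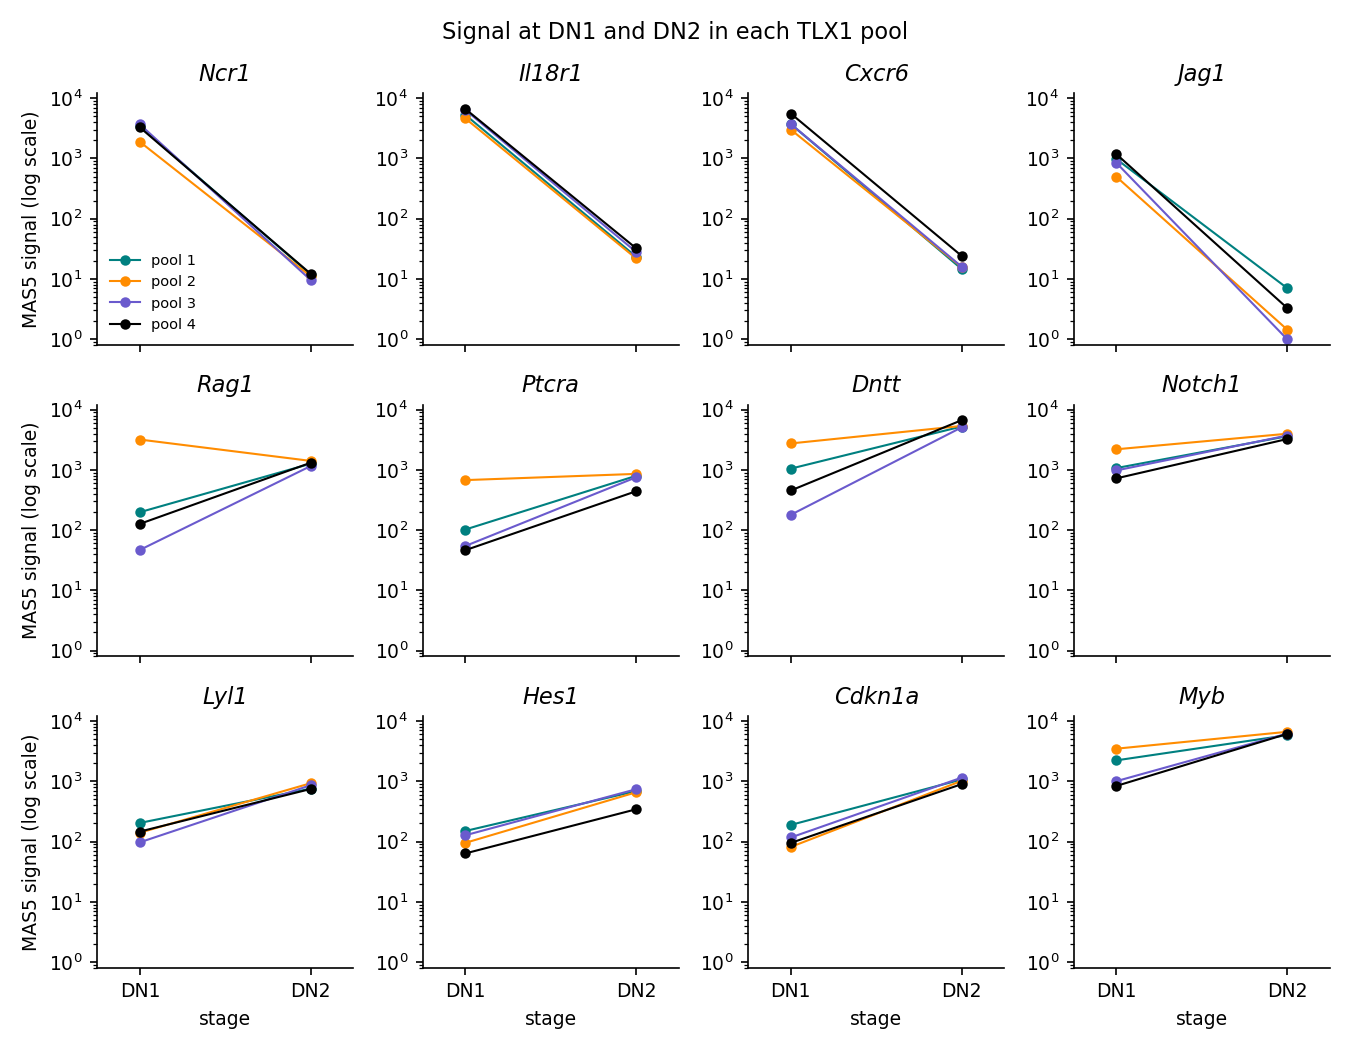
Signal (log scale) at DN1 and DN2 of 12 genes in each of 4 TLX1 pools, 1 line per pool; signals under 1 are drawn at 1. *Ncr1*, *Il18r1*, *Cxcr6* and *Jag1* fall steeply in all 4 pools, *Rag1*, *Ptcra*, *Dntt*, *Notch1* and *Myb* start higher at DN1 in pool 2 than in pools 1, 3 and 4, and *Lyl1*, *Hes1* and *Cdkn1a* rise in all 4 pools.

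The lists of other cells that a CD44 gate can hold moved with the stage, and their part in the differences was not tested. Of 24 myeloid genes, 22 were lower and 0 higher (median -3.19), and among the 11 at 100 in both stages 9 were lower. The summed signal of the list was 23215 to 96413 at DN1 and 4125 to 5267 at DN2. *S100a9*, a calcium-binding protein of neutrophils, had signals of 7355, 9822, 1060.1 and 14190.0 at DN1 and 41.1, 259.6, 0.26 and 228 at DN2. *Camp*, which encodes the cathelicidin of neutrophil granules, had signals of 3636, 5305, 119.7 and 9072 at DN1 and 18.1, 59.5, 1.09 and 74.1 at DN2, and *Ngp*, another granule protein, of 5218, 7242, 369.5 and 9645 at DN1 and 38.4, 136, 1.35 and 127 at DN2. Pool 3 was far under the other pools at DN1 in these 3 neutrophil genes. *Lgals3*, which encodes galectin-3, had signals of 4738, 4938, 6100.2 and 8256 at DN1 and 40.3, 60.1, 51.3 and 69.1 at DN2, with no such gap at DN1. *Ccr2*, the chemokine receptor of monocytes, differed by -7.05 ± 0.16 (limma, adjusted p = 1.9e-05), and *Lyz2*, a lysozyme of macrophages, by -2.11 ± 0.52 (limma, adjusted p = 0.018). The macrophage markers *Adgre1*, *Fcgr1*, *Cd14* and *Itgam* stayed under 100 at both stages. *Lyz2* did not pass the test without pool 1, 2 or 4 (-2.14, -1.94 and -1.62).

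Dendritic cell genes were lower in 8 of 13 cases and higher in 2 (median -3.24), but all 8 lower genes entered through DN1 alone, and of the 5 that reached 100 at both stages 0 were lower and 2 higher (median 0.63). Of 8 genes of MHC class II presentation 5 were lower and 1 was higher (median -2.38), the 5 lower ones being among the 7 at 100 in both stages (median -2.92). *Itgax*, which encodes CD11c, had signals of 1089, 696, 1501 and 434 at DN1 and 24.97, 15.5, 47.7 and 15.6 at DN2. *H2-Aa*, an MHC class II chain, had signals of 1939.9, 1346, 2630.3 and 1179 at DN1 and 138, 197, 273 and 167 at DN2, a difference of -3.17 ± 0.20 (limma, adjusted p = 0.00022). Neither overlapped between the stages. *Cd74*, the invariant chain, differed by -2.92 ± 0.19, and *Ctss*, the protease that trims it, by -3.17 ± 0.12. *Siglech*, a receptor of plasmacytoid dendritic cells, had signals of 299, 160.1, 402 and 318 at DN1 and 3.76, 2.12, 4.23 and 12.1 at DN2. The higher dendritic cell genes were *Ptprs*, a receptor phosphatase (0.86 ± 0.12), and *Tcf4*, the E protein of plasmacytoid dendritic cells (0.63 ± 0.15). *H2-Ob*, a chain of the peptide-loading modulator H2-O, was the higher MHC class II gene (1.50 ± 0.28). The dendritic cell genes *Zbtb46*, *Xcr1*, *Batf3* and *Ccr7* were under 100 at both stages. The summed signal of the dendritic cell list was 5952 to 8462 at DN1 and 3585 to 4519 at DN2, and that of the MHC class II list 5901 to 11464 and 1646 to 2291. *Tcf4* did not pass the test without pool 1 (0.67).

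Mast cell and basophil genes were lower in 9 of 10 cases (median -4.99). All 9 of these entered through DN1 alone, by which they had to be low at DN2, and the 1 gene at 100 in both stages was higher. *Mcpt1*, a mast cell protease, had signals of 1576, 885, 1014 and 621 at DN1 and 2.64, 0.89, 4.38 and 1.41 at DN2, and *Fcer1a*, the IgE-binding chain, of 160.3, 123, 145 and 128 at DN1 and 0.14, 0.21, 2.77 and 6.12 at DN2. Both fell in every pool to signals near or under the floor of 1, those of *Fcer1a* reaching 0.14 to 6.12. *Cpa3*, carboxypeptidase A3, which early progenitors also express, was the 1 gene of the list that was higher, with signals of 953, 481, 431 and 589 at DN1 and 1502, 1571, 1411 and 1630.5 at DN2, a difference of 1.39 ± 0.20 (limma, adjusted p = 0.003). The list's summed signal was 3597 to 5952 at DN1 and 1519.9 to 1779 at DN2, and *Tpsb2*, *Tpsab1* and *Gata2* were under 100 at both stages.

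B lineage genes were lower in 4 of 8 cases and higher in 2 (median -0.94). Only 3 of the 8 reached 100 at both stages, 1 of them lower and 0 higher, and the defining genes *Pax5*, *Ebf1*, *Cd79a* and *Ms4a1* were under 100 at both stages. *Cd72*, a receptor of B cells, differed by -3.17 ± 0.17 (limma, adjusted p = 0.00014), and *Ighm*, the μ heavy chain locus, by -2.72 ± 0.32 (limma, adjusted p = 0.0016). *Vpreb1*, of the surrogate light chain, rose, with signals of 55.1, 24.8, 19.2 and 37.7 at DN1 and 337, 306, 253 and 199 at DN2, a difference of 3.09 ± 0.26 (limma, adjusted p = 0.00054). *Btk*, a tyrosine kinase of B and myeloid cells, was higher (1.38 ± 0.16). The summed signal of the B lineage list was 2168 to 2728 at DN1 and 1262 to 1590.4 at DN2.

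Erythroid genes were included in 3 of 10 cases, 1 being higher and 1 lower at DN2, with a summed signal of 3701 to 5154 at DN1 and 1779.9 to 1970.1 at DN2. *Car2*, which encodes carbonic anhydrase 2, had signals of 3479, 2266, 4359.9 and 2745 at DN1 and 105, 107, 103 and 108 at DN2, and *Tfrc*, the transferrin receptor of dividing cells, of 647, 1202, 623 and 478 at DN1 and 1448, 1634, 1619 and 1612 at DN2. *Car2* fell (-4.88 ± 0.18, limma adjusted p = 4.7e-05) and *Tfrc* rose (1.18 ± 0.22, limma adjusted p = 0.0067) in all 4 pools. In each pool the fall of *Car2* was larger than that of the summed signal, so the list's other genes together did not fall. Among 20 genes of thymic stroma and endothelium 17 were under 100 at both stages, and the 3 others were higher at DN2. They were *Pdgfrb*, a receptor of mesenchyme (84.1 to 141 at DN1 and 827 to 1460.2 at DN2), *Epcam*, an adhesion protein of epithelium (64.9 to 115 at DN1 and 467 to 749 at DN2), and *Pecam1*, which endothelium and early progenitors carry (0.32 ± 0.10). The summed signal of that list was 536 to 727 at DN1 and 1943 to 2263 at DN2, while the median difference over all 20 genes, without the filter, was -0.49. *Pecam1* did not pass the test without pool 1, 3 or 4 (0.36, 0.34 and 0.24).

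**Figure D3:**
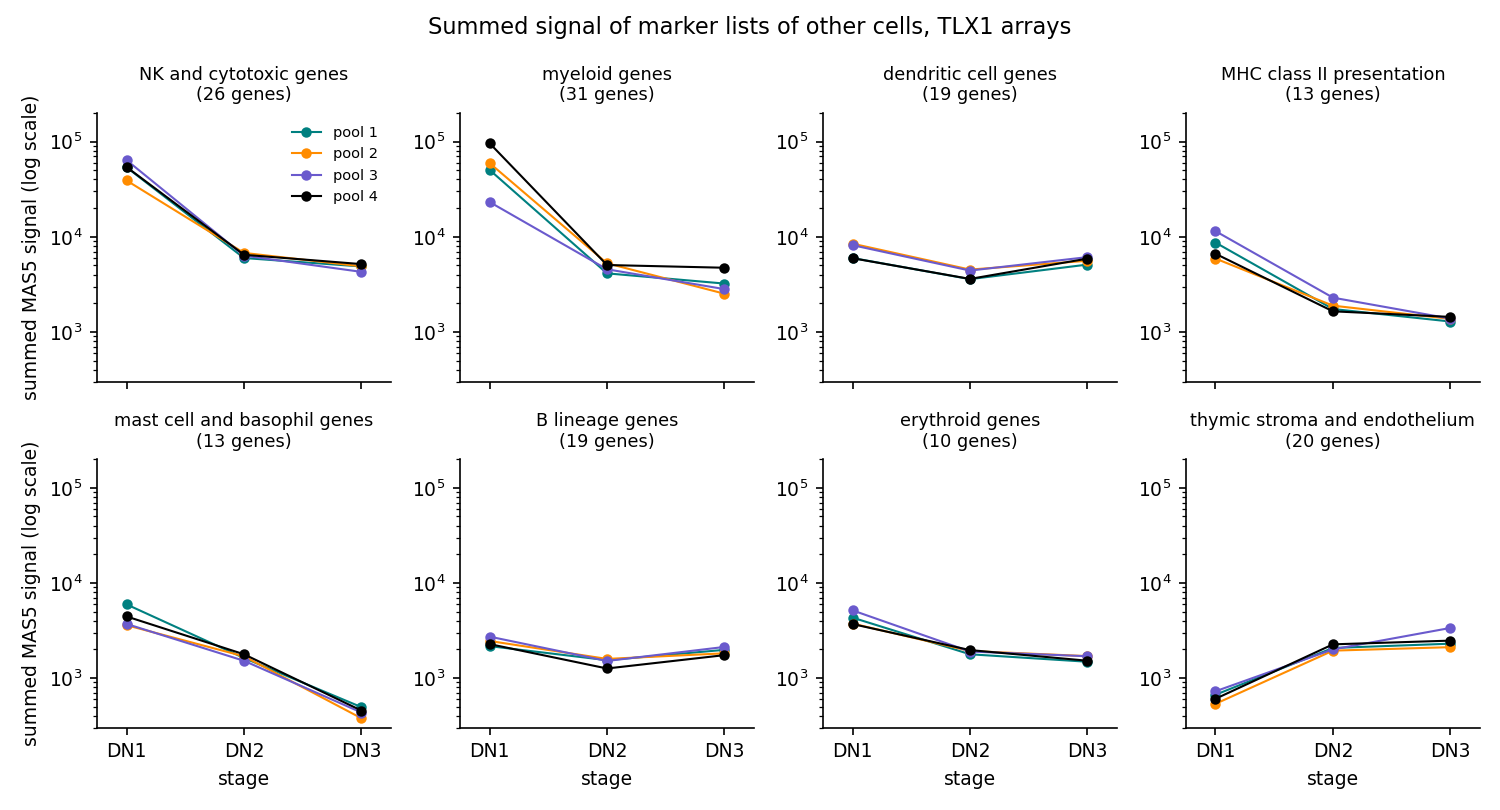
Summed signal (log scale) of 8 lists of marker genes of other cells on each of the 12 TLX1 arrays, by stage, 1 line per pool. The stroma sum is higher at DN2 than at DN1 in all 4 pools and the other 7 sums are lower, the myeloid sum being lowest at DN1 in pool 3. Of the 20 stroma genes 3 were included, and over all 20 the median difference was -0.49. In the erythroid list the fall of *Car2* was larger than that of the sum.

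Of 9 chemokine and homing receptors, 8 were lower at DN2 and 1 was higher (median -5.33). The 6 that entered through DN1 alone were all lower, and of the 3 at 100 in both stages 2 were lower and 1 higher (median -1.23). *Ccr9*, the receptor for the thymic chemokine CCL25, had signals of 503, 1165, 663 and 954 at DN1 and 8.38, 29.04, 46.96 and 12.4 at DN2, a difference of -5.33 ± 0.40 (limma, adjusted p = 0.0004). *Gpr183*, an oxysterol receptor, differed by -5.61 ± 0.14 (limma, adjusted p = 1.9e-05), and *Cxcr3*, a receptor of effector lymphocytes, by -5.35 ± 0.26 (limma, adjusted p = 0.00011). None of the 3 had overlapping signals. *Selplg*, the P-selectin ligand with which progenitors enter the thymus, was lower by a smaller margin (-1.23 ± 0.15). *Cxcr4*, the receptor for CXCL12, was the 1 that rose, with signals of 1062, 1573, 935 and 552 at DN1 and 2235, 2103, 2101 and 989 at DN2, a difference of 0.88 ± 0.15 (limma, adjusted p = 0.0049).

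Integrins were lower in 9 of 12 cases and higher in 2 (median -3.01), or 75% and 16.7%, against 26.9% and 32.8% of all genes. Those that entered through DN1 alone numbered 6 and were all lower, and of the 6 at 100 in both stages 3 were lower and 2 higher (median -0.60). *Itgae*, which encodes CD103, had signals of 3982, 3217, 3843 and 5719.8 at DN1 and 19.4, 20.3, 19.9 and 51.3 at DN2, a difference of -7.35 ± 0.17 (limma, adjusted p = 1.9e-05). Its partner *Itgb7* differed by -4.91 ± 0.16. *Itgb2*, the common chain of leukocyte integrins, differed by -3.57 ± 0.17, and *Itgal*, its LFA-1 partner, by -1.11 ± 0.15. The higher ones were *Itga4*, which binds VCAM-1 (0.60 ± 0.15), and *Itga6*, which binds laminin (0.84 ± 0.24), both with overlapping signals. *Itgav*, of the vitronectin receptor, did not pass the test (-0.08 ± 0.10), and after median centring it passed with the opposite sign (0.32). *Itga6* did not pass the test without pool 1, 3 or 4 (0.73, 0.77 and 0.71).

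Notch receptors and their known targets changed in both directions, 29.4% higher and 47.1% lower against 32.8% and 26.9% of all genes. Of 17 genes, 5 were higher, 8 lower and 4 not called (5 higher and 4 lower after median centring; median -0.21, and 0.20 after median centring). The lower ones numbered 5, 8, 6 and 5 without pools 1, 2, 3 and 4 in turn. Of 15 genes at 100 in both stages, 5 were higher and 6 lower. *Notch1*, the receptor that specifies T cells, had signals of 1073, 2199.9, 980.1 and 724 at DN1 and 3621, 3985, 3720.1 and 3255 at DN2, a difference of 1.68 ± 0.23 (limma, adjusted p = 0.0023). *Notch3*, itself a Notch target, had signals of 189, 381, 102 and 143 at DN1 and 869, 841, 971 and 629.7 at DN2, a difference of 2.18 ± 0.33 (limma, adjusted p = 0.0033). All DN2 signals of these receptors lay above those at DN1. *Notch2* fell without overlap, by a difference of -1.05 ± 0.17 (limma, adjusted p = 0.0044). The ligand gene *Jag1* fell to the floor or near it, with signals of 979, 497, 848 and 1182 at DN1 and 7.06, 1.45, 0.99 and 3.30 at DN2.

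Among the Notch targets, *Hes1*, a repressor, rose, with signals of 149.8, 95.2, 127 and 63.5 at DN1 and 689, 658, 739.6 and 343 at DN2, a difference of 2.49 ± 0.12 (limma, adjusted p = 0.00011). *Myc*, which Notch induces in thymocytes, rose as well, with signals of 564, 873, 525 and 611 at DN1 and 1016, 1128, 1062 and 1289.7 at DN2, a difference of 0.83 ± 0.14 (limma, adjusted p = 0.0054). In both genes the stages did not overlap. *Ptcra*, which encodes the pre-T cell receptor α chain, had signals of 102, 677, 54.5 and 46.5 at DN1 and 798, 859, 753 and 442 at DN2, a difference of 2.59 ± 0.57 (limma, adjusted p = 0.012). DN1 of pool 2 lay close to the DN2 signals, and without that pool the difference was 3.33. *Dtx1*, an E3 ligase induced by Notch, did not pass the test (-0.16 ± 0.10), nor did *Rbpj*, the DNA-binding partner of Notch (-0.07 ± 0.11). *Nrarp*, a feedback inhibitor, fell (-0.72 ± 0.20, limma adjusted p = 0.027). The fringe glycosyltransferases *Lfng* (-1.36 ± 0.12), *Mfng* (-0.69 ± 0.13) and *Rfng* (-0.31 ± 0.09) modify Notch receptors, and all 3 were lower, *Rfng* turning to 0.09 without a call after median centring. *Nrarp* did not pass the test without pool 1, 3 or 4 (-0.57, -0.58 and -0.78). *Rfng* did not pass the test without pool 1, 3 or 4 (-0.36, -0.31 and -0.29).

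The promoters of *Ptcra* and *Lfng* are shown because they hold the letters of the RBPJ motif and the genes moved in opposite directions. The 250 bases before the start of 14 of the 17 genes were found in RefSeq (GRCm38.p6). TGGGAA, searched on both strands, lay in 3 of the 14 genes (21.4%), against 21.6% of all 32851 promoters of that length. The matches were in *Ptcra*, which was higher at DN2, *Lfng*, which was lower, and *Rbpj*, which did not pass the test. *Ptcra* (chr17:46763713-46763962, minus strand) holds the motif at -84 to -79 and at -32 to -27 from its start. *Lfng* (chr5:140607091-140607340, plus strand) holds it at -108 to -103, where the base before it is G, and in reverse complement at -135 to -130. The longer GTGGGAA was thus found in 1 of the 14 genes, against 5.42% of all promoters. Capitals mark the matches of the 6 letters, read 5′ to 3′ on the strand of the gene, and a match is a description of letters and not of binding.
Ptcra: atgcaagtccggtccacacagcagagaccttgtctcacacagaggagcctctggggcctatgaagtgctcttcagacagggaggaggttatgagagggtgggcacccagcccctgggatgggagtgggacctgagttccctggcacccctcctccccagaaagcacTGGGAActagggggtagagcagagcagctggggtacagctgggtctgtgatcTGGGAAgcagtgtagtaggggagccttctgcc
Lfng: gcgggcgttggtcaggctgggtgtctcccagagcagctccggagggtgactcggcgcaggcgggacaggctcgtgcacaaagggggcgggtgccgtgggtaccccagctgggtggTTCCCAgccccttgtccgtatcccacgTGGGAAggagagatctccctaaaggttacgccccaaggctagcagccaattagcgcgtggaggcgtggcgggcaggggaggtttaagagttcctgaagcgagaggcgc

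Transcription factors of the T lineage were split, with 6 of 24 higher, 11 lower and 7 not called (10 higher and 4 lower after median centring; median -0.13, and 0.28 after median centring). Before centring that is 25% higher and 45.8% lower, against 32.8% and 26.9% of all genes. With the 2 that entered through DN1 alone left out, 6 of 22 were higher and 9 lower (median -0.02). The lower ones numbered 6, 11, 8 and 9 without pools 1, 2, 3 and 4 in turn. *Bcl11b*, the factor of T cell commitment, had signals of 1579, 2023, 1514 and 2009.9 at DN1 and 3260.4, 3140.2, 3445 and 2979 at DN2, a difference of 0.86 ± 0.14 (limma, adjusted p = 0.0042). *Myb*, a factor of progenitors and dividing thymocytes, had signals of 2229, 3482, 1006 and 838 at DN1 and 5832, 6644, 6191 and 6133 at DN2, a difference of 1.95 ± 0.35 (limma, adjusted p = 0.0063). In both the stages did not overlap. *Sox4*, an HMG-box factor, differed by 2.22 ± 0.47 and *Runx1*, which acts throughout early T cell development, by 1.65 ± 0.12. *Tcf3*, which encodes the E2A proteins, was higher by 0.94 ± 0.11, and *Gfi1*, a repressor, by 1.74 ± 0.30. *Gata3*, needed at each early T cell step, was lower (-0.42 ± 0.14, limma adjusted p = 0.043) with overlapping signals of 987, 711, 1207 and 603 at DN1 and 715, 655, 682 and 496 at DN2, and lost its call after median centring (-0.02). The Ikaros family was lower, *Ikzf1* by a difference of -0.73 ± 0.08 and *Ikzf2* of -0.69 ± 0.11. *Ikzf3*, which encodes Aiolos, had signals of 2645, 2148, 3225 and 2254 at DN1 and 8.73, 19.5, 12.1 and 8.06 at DN2. Pool 2 fell the least in that gene and had the highest DN2 signal. *Ahr*, the aryl hydrocarbon receptor of innate lymphocytes, differed by -1.83 ± 0.23, and *Runx3*, a factor of cytotoxic cells, by -0.78 ± 0.16. *Lef1*, a partner of β-catenin, had signals of 236, 839, 199 and 80.05 at DN1 and 96.1, 134, 141 and 66.1 at DN2, a difference of -1.18 ± 0.40 (limma, adjusted p = 0.049), and of -0.69 without pool 2, the highest at DN1. *Tcf12*, an E protein, did not pass the test (0.68 ± 0.25). *Gata3* did not pass the test without pool 1, 3 or 4 (-0.41, -0.29 and -0.47). *Lef1* did not pass the test without pool 1 or 3 (-1.14 and -1.41). *Tcf12* passed the test without pool 2 (0.99).

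Transcription factors of progenitors and other lineages numbered 15, of which 6 were higher and 7 lower (median -0.13, and 0.27 after median centring). At 100 in both stages were 9 of them, 4 higher and 3 lower (median 0.06). Over all 15 the shares were 40% higher and 46.7% lower, against 32.8% and 26.9% of all genes. *Lyl1*, a partner of E proteins in early progenitors, had signals of 204, 140.4, 97.2 and 147 at DN1 and 755, 929.9, 861 and 746 at DN2, a difference of 2.53 ± 0.21 (limma, adjusted p = 0.00054). *Erg*, an ETS factor of stem cells, had signals of 79.3, 35.6, 33.5 and 93.3 at DN1 and 450.1, 366, 489 and 731 at DN2, a difference of 3.18 ± 0.23 (limma, adjusted p = 0.00033). These rose in every pool without overlap, as did *Nfe2*, best known from megakaryocytes (2.80 ± 0.38), and *Etv6*, an ETS repressor (1.41 ± 0.11). *Id2*, the E protein inhibitor of innate lymphocytes, fell, with signals of 3438, 2515, 4247 and 3829 at DN1 and 124, 166, 156 and 112 at DN2, a difference of -4.65 ± 0.20 (limma, adjusted p = 7.6e-05). *Irf8*, of dendritic cells and monocytes, differed by -4.68 ± 0.17, and *Lmo2*, a partner of *Lyl1*, by -1.97 ± 0.17. *Spi1*, which encodes PU.1, was low at DN1 and lower at DN2 (111 to 190.4 at DN1 and 40.2 to 78.4 at DN2). *Hhex* (0.06 ± 0.18) and *Mycn* (-0.13 ± 0.10) did not pass the test, and *Meis1*, *Gata2*, *Tal1* and the 4 listed *Hoxa* genes were under 100 at both stages.

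Cytokine receptors and their signalling genes were lower in 14 of 20 cases and higher in 4 (median -0.95), and 9 and 4 of the 15 at 100 in both stages (median -0.76). *Il7r*, the interleukin-7 receptor chain on which early thymocytes depend, had signals of 2831, 3105, 3829 and 4737 at DN1 and 791, 979.8, 956 and 810.2 at DN2, a difference of -2.01 ± 0.16 (limma, adjusted p = 0.00047). *Il2rb*, the shared chain of the interleukin-2 and interleukin-15 receptors, had signals of 1741, 925, 2057 and 1080.4 at DN1 and 5.90, 4.55, 2.92 and 1.01 at DN2. Both fell in every pool without overlap, *Il2rb* to the floor or near it. *Il1r1*, a receptor of interleukin-1, differed by -7.49 ± 0.26. *Kit*, the stem cell factor receptor of DN1 and DN2 progenitors, did not pass the test, with signals of 383, 247, 429.6 and 266 at DN1 and 280.1, 307, 361 and 341 at DN2, a difference of -0.01 ± 0.17. *Flt3* and *Cd34* were under 100 at both stages. The myeloid receptors *Csf1r* (-2.12 ± 0.30), *Csf3r* (-3.20 ± 0.54) and *Csf2rb* (-3.34 ± 0.21) were lower. *Stat5a* (1.69 ± 0.11) and *Stat5b* (1.10 ± 0.12), which act under the interleukin-7 receptor, were higher, while the kinases *Jak1* (-0.76 ± 0.13) and *Jak3* (-1.01 ± 0.20) were lower. Of the feedback genes that STAT5 induces, *Cish* fell, with signals of 1454, 824, 1605 and 1538 at DN1 and 376, 391, 389.5 and 283 at DN2, and *Socs2* rose, with signals of 1403, 796, 1393 and 1154 at DN1 and 2114, 1968, 2195 and 1824 at DN2. *Cd93*, a surface protein of early progenitors, was also higher (2.43 ± 0.21).

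Genes of the T cell receptor complex and its signalling went both ways, 8 of 23 (34.8%) being higher and 9 (39.1%) lower (11 higher and 6 lower after median centring; median -0.17, and 0.23 after median centring), against 32.8% and 26.9% of all genes. Of the 21 at 100 in both stages 8 were higher and 7 lower, with a median of the other sign (0.17). *Cd3g*, a chain of the complex, rose, with signals of 3045, 3221, 2523 and 3755 at DN1 and 5335, 6118, 5524 and 5565 at DN2, a difference of 0.86 ± 0.12 (limma, adjusted p = 0.0026). *Cd3d*, another chain, had signals of 1100.3, 3300.2, 596 and 1257 at DN1 and 3591, 3711, 3632 and 2238 at DN2, a difference of 1.33 ± 0.40 (limma, adjusted p = 0.033), and of 1.72 without pool 2. The stages overlapped in *Cd3d*, where DN1 of pool 2 lay among the DN2 signals. *Cd3e* (0.17 ± 0.11) and *Cd247* (-0.17 ± 0.12) did not pass the test. *Trat1*, a membrane adaptor, was higher (3.07 ± 0.59), as was *Themis*, which tunes receptor signals in thymocytes (2.81 ± 0.54, and 3.47 without pool 2). *Zap70*, the kinase that binds the phosphorylated receptor, fell, with signals of 749, 808, 879 and 857 at DN1 and 109.7, 106, 114 and 86.4 at DN2, a difference of -2.99 ± 0.12 (limma, adjusted p = 5.5e-05). The kinases *Txk* (-2.89 ± 0.14) and *Fyn* (-0.99 ± 0.19) were lower too, whereas *Tec*, of the same family as *Txk*, was higher (1.05 ± 0.14). *Plcg1*, the phospholipase under the receptor, was higher (1.26 ± 0.15), and *Lat*, its adaptor, did not pass the test (0.29 ± 0.12). The costimulatory receptor *Cd28* fell in every pool, the least in pool 2, with signals of 459.5, 424, 561 and 236 at DN1 and 31.99, 37.5, 39.3 and 16.7 at DN2. *Cd3d* did not pass the test without pool 1, 3 or 4 (1.20, 0.90 and 1.50). *Lat* passed the test without pool 2 (0.40).

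T cell surface glycoproteins were lower in 9 of 17 cases and higher in 6 (median -0.60). Of the lower ones 6 entered through DN1 alone, and of the higher ones 3 through DN2 alone. The 8 at 100 in both stages were evenly split, 3 higher and 3 lower (median 0.02). *Icos*, a costimulatory receptor, had signals of 2054, 1424, 2526 and 3073 at DN1 and 15.4, 19.6, 19.1 and 28.6 at DN2, a difference of -6.76 ± 0.17 (limma, adjusted p = 1.9e-05). *Cd7* (-5.50 ± 0.24) and *Cd2* (-6.01 ± 0.35), of early T and NK cells, were lower too, and none of the 3 overlapped between the stages. *Cd8a* had signals of 64.1, 1866, 145 and 108 at DN1 and 5.14, 80.5, 5.12 and 10.9 at DN2, a difference of -4.08 ± 0.28 (limma, adjusted p = 0.00028). *Cd8b1*, its partner, differed by -4.14 ± 0.13 (limma, adjusted p = 3.1e-05). Pool 2 was the highest at both stages of *Cd8a*, which was lower at DN2 in each pool although the stages overlapped. *Cd4* was under 100 at both stages. *Ctla4* (3.31 ± 0.46), *Cd6* (2.27 ± 0.33) and *Cd5* (1.76 ± 0.26), which restrain receptor signals, were higher. *Cd24a*, which is high on immature thymocytes, rose, with signals of 1288, 2915, 461 and 2139 at DN1 and 4048, 4788, 4062 and 5839 at DN2, a difference of 1.74 ± 0.38 (limma, adjusted p = 0.012). *Ly6d*, a surface protein of lymphoid progenitors, did not pass the test, with signals of 185, 4742, 223 and 252 at DN1 and 1558, 2575, 2319 and 1744 at DN2, a difference of 2.09 ± 0.74. It was lower at DN2 in pool 2 alone, and without that pool it passed (3.08).

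Genes of V(D)J recombination and end joining were higher at DN2 in 11 of 16 cases and lower in 1 (median 0.63; 10 and 0 of 14 at 100 in both stages). The higher ones numbered 7, 14, 8 and 9 without pools 1, 2, 3 and 4 in turn. *Dntt*, terminal transferase, had signals of 1050.2, 2752, 179.8 and 455 at DN1 and 5258, 5374, 5084 and 6688 at DN2, a difference of 2.997 ± 0.63 (limma, adjusted p = 0.01). *Rag2*, of the recombinase, had signals of 47.1, 204, 13.5 and 20.8 at DN1 and 413, 363, 394 and 530.2 at DN2, a difference of 3.38 ± 0.69 (limma, adjusted p = 0.0094). In both the stages did not overlap. *Rag1*, its partner, had signals of 199, 3192, 46.9 and 127 at DN1 and 1268, 1412, 1158 and 1314 at DN2. It was higher at DN2 in pools 1, 3 and 4 and lower in pool 2, did not pass the test (2.37 ± 0.92), and passed without pool 2 (3.56). *Xrcc6*, which encodes Ku70, showed the same order, with signals of 443, 4631, 353 and 272 at DN1 and 2008, 2112, 2047 and 1656 at DN2, a difference of 1.55 ± 0.66, and passed without pool 2 (2.44). *Lig4*, the ligase of end joining, was higher (1.55 ± 0.45), as were *Nbn* (1.01 ± 0.11) and *Mre11a* (0.65 ± 0.13), of the complex that binds broken ends. *Atm*, the kinase that answers to breaks, was higher by 0.62 ± 0.09. *Prkdc*, the gene that carries the scid mutation, was measured at 245, 226, 258 and 224 at DN1 and 388, 385, 413 and 353 at DN2, a difference of 0.69 ± 0.08 (limma, adjusted p = 0.0017). The 1 lower gene was *Polm*, a DNA polymerase (-2.82 ± 0.28, limma adjusted p = 0.00088). *Lig4* did not pass the test without pool 1, 3 or 4 (1.45, 1.38 and 1.24).

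DNA replication genes rose together. Of 40 genes, 36 were higher at DN2, 0 lower and 4 not called (median 1.10). DN2 signals lay all above those at DN1 in 29 of the 40, against 25.5% of all genes. The higher ones numbered 24, 39, 23 and 25 without pools 1, 2, 3 and 4 in turn. *Gins1*, of the replicative helicase, had signals of 289.6, 570.5, 160.5 and 153 at DN1 and 1019.7, 871, 1016 and 907 at DN2, a difference of 1.91 ± 0.36 (limma, adjusted p = 0.0069). *Fen1*, the flap endonuclease, had signals of 516, 948, 475 and 463 at DN1 and 1543, 1787, 1516 and 1633 at DN2, a difference of 1.50 ± 0.17 (limma, adjusted p = 0.0013). *Mcm6*, a subunit of the MCM helicase, had signals of 2100.5, 3063, 1443 and 953 at DN1 and 3795, 4544, 4284 and 3671 at DN2. In these genes DN1 of pool 2 was the highest of the DN1 arrays and still under the lowest DN2 array, and the same held for *Rfc1*, of the clamp loader (1.14 ± 0.12). *Pcna*, the clamp itself, rose by less (0.41 ± 0.11, limma adjusted p = 0.022). *Rrm2*, of ribonucleotide reductase (0.33 ± 0.26), and *Rpa1* (0.21 ± 0.09) and *Rpa3* (0.29 ± 0.20), which bind single-stranded DNA, did not pass the test. *Pcna* did not pass the test without pool 1, 3 or 4 (0.40, 0.42 and 0.33). *Rpa3* passed the test without pool 2 (0.52). *Rrm2* passed the test without pool 2 (0.64).

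Mitotic genes were higher in 24 of 41 cases and lower in 0 (median 0.92), but that count depended on the pools, with 0, 39, 0 and 1 without pools 1, 2, 3 and 4 in turn. The DN2 signals all exceeded those at DN1 in 3 of the 41, a smaller share than the 25.5% of all genes. *Aurkb*, a mitotic kinase, had signals of 220.4, 439, 145 and 127 at DN1 and 486, 452, 455 and 701 at DN2, a difference of 1.32 ± 0.38 (limma, adjusted p = 0.029). *Ccnb2*, cyclin B2, had signals of 728, 1325, 472 and 391 at DN1 and 1380.3, 1410.0, 1337 and 1491 at DN2, a difference of 1.11 ± 0.30 (limma, adjusted p = 0.025). DN1 of pool 2 came closest to the DN2 signals in both. *Cdk1*, the kinase that cyclin B binds, did not pass the test (0.86 ± 0.31) and passed without pool 2 (1.23). The same held for *Mki67*, a nuclear protein of dividing cells (0.46 ± 0.21, and 0.68 without pool 2). *Ccnb2* did not pass the test without pool 1, 3 or 4 (1.17, 0.98 and 0.84). *Aurkb* did not pass the test without pool 1, 3 or 4 (1.39, 1.22 and 0.94).

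Regulators of the G1 phase were higher in 8 of 21 cases (38.1%) and lower in 7 (33.3%; median 0.34), shares near the 32.8% and 26.9% of all genes. At 100 in both stages 6 of 19 were higher and 7 lower. *Cdkn1a*, which encodes the inhibitor p21, rose, with signals of 189, 81.5, 117 and 94.9 at DN1 and 1073, 1017, 1152 and 898 at DN2, a difference of 3.17 ± 0.19 (limma, adjusted p = 0.00021). *Cdkn1b*, which encodes the inhibitor p27, fell, with signals of 909.7, 803, 656 and 915 at DN1 and 374, 376, 292 and 278 at DN2, a difference of -1.32 ± 0.13 (limma, adjusted p = 0.00089). Neither overlapped between the stages. *Cdk6* rose (1.44 ± 0.13, limma adjusted p = 0.00062), and *Cdk4*, which like it binds D cyclins, differed by 1.23 ± 0.12. Of these cyclins, *Ccnd3* (-0.57 ± 0.13) and *Ccnd2* (-0.58 ± 0.19) were lower with overlapping signals, and *Ccnd1* was under 100 at both stages. Among the pocket proteins, *Rbl2*, which encodes p130 of resting cells, was lower (-2.09 ± 0.13), as was *Rb1* (-0.85 ± 0.17), while *Rbl1*, which encodes p107, was higher (0.72 ± 0.12). The factors they bind, *E2f3* (1.23 ± 0.21) and *E2f1* (0.87 ± 0.21), were higher, and *Ccne1*, cyclin E1, did not pass the test (-0.06 ± 0.17). *E2f1* did not pass the test without pool 1 (0.84). *Ccnd2* did not pass the test without pool 1, 3 or 4 (-0.59, -0.49 and -0.44).

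**Figure D4:**
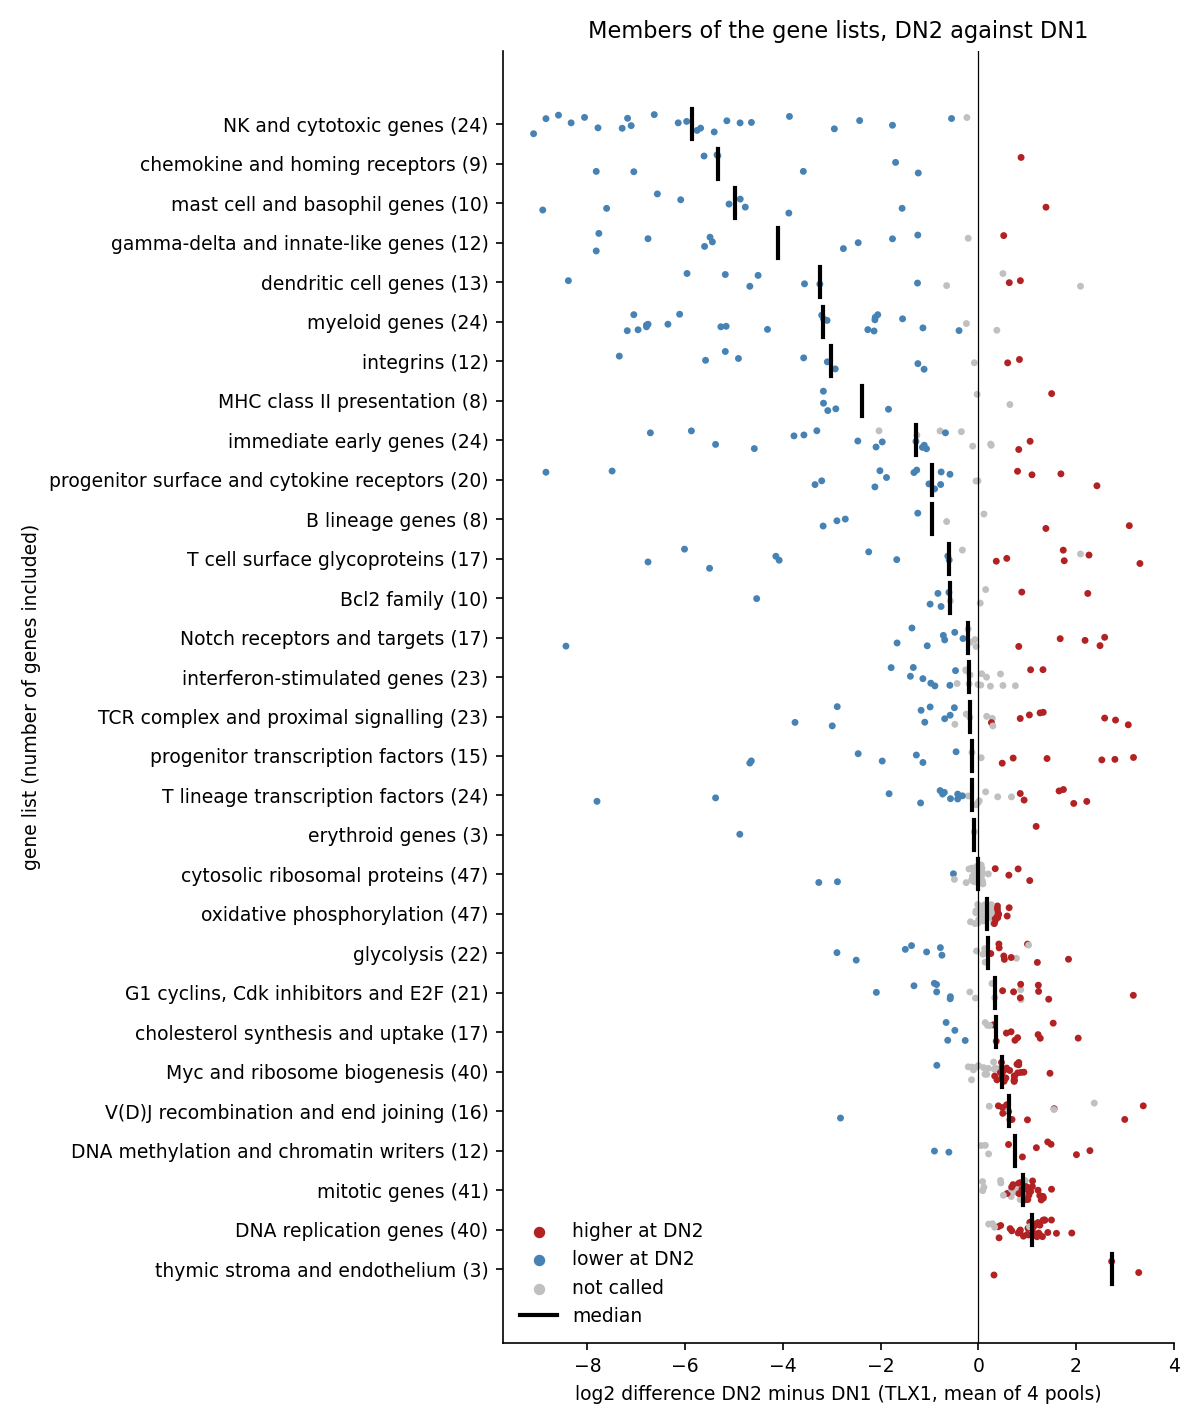
Log2 difference DN2 minus DN1 of the members of 30 gene lists in TLX1 thymocytes (1 point per gene), called higher (red), called lower (blue) or not called (grey), with the median of each list as a black bar; genes that entered through 1 stage alone are included. The medians run from -5.86 for NK and cytotoxic genes to 1.10 for DNA replication genes and 2.73 for the 3 included stroma genes, and most points of the ribosomal proteins lie close to 0.

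Of 40 genes of *Myc* and ribosome biogenesis, 26 (65%) were higher, against 32.8% of all genes, and 1 was lower (median 0.49). The higher ones numbered 16, 27, 18 and 18 without pools 1, 2, 3 and 4 in turn. *Wdr12*, of the large-subunit processing complex, had signals of 299.9, 663, 245 and 201 at DN1 and 832, 957, 875 and 819.5 at DN2, a difference of 1.47 ± 0.26 (limma, adjusted p = 0.0057). *Polr1b*, of RNA polymerase I, differed by 0.93 ± 0.10 (limma, adjusted p = 0.0013), and *Ncl*, which encodes nucleolin, by 0.49 ± 0.12 (limma, adjusted p = 0.019). The lower gene was *Mxd4*, an antagonist of *Myc* (-0.85 ± 0.13). Of 47 subunits of oxidative phosphorylation, 14 (29.8%) were higher, a share no larger than that of all genes, and 0 lower, with a median of 0.18 (45 higher and 0 lower after median centring). The higher ones numbered 2, 16, 3 and 5 without pools 1, 2, 3 and 4 in turn. *Ndufv2*, of complex I, differed by 0.63 ± 0.10 (limma, adjusted p = 0.004). Of 47 cytosolic ribosomal protein genes 40 did not pass the test, 4 (8.51%) were higher and 3 lower (35 higher and 2 lower after median centring; median -0.01, and 0.40 after median centring). *Ncl* did not pass the test without pool 1, 3 or 4 (0.49, 0.48 and 0.39).

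Glycolysis genes went both ways, 9 of 22 (40.9%) higher and 7 (31.8%) lower (median 0.20), against 32.8% and 26.9% of all genes. Of the 18 at 100 in both stages 8 were higher and 4 lower (median 0.34). The higher ones numbered 5, 10, 6 and 6 without pools 1, 2, 3 and 4 in turn. The platelet isoform of phosphofructokinase, *Pfkp*, fell, with signals of 1226, 991, 1340.3 and 1274 at DN1 and 159, 171, 143 and 176 at DN2, a difference of -2.89 ± 0.13 (limma, adjusted p = 8.9e-05). The liver isoform, *Pfkl*, rose with overlapping signals of 194, 159, 214 and 43.9 at DN1 and 361, 363, 345 and 105 at DN2, a difference of 1.01 ± 0.13 (limma, adjusted p = 0.0018). The glucose transporters *Slc2a1* (-1.06 ± 0.13) and *Slc2a3* (-1.37 ± 0.18) were lower. *Pdk1*, which holds pyruvate back from the mitochondria (1.21 ± 0.22), and *Pgk1*, phosphoglycerate kinase (0.43 ± 0.08), were higher. *Pgk1* did not pass the test without pool 1 (0.43).

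Genes of cholesterol synthesis and uptake were higher in 10 of 17 cases and lower in 4 (13 higher and 0 lower after median centring; median 0.37), and in 9 and 3 of the 15 at 100 in both stages. The lower ones numbered 2, 3, 2 and 2 without pools 1, 2, 3 and 4 in turn. *Sqle*, squalene epoxidase, had signals of 125, 301, 102 and 65.6 at DN1 and 516, 569, 494 and 502 at DN2, a difference of 2.04 ± 0.32 (limma, adjusted p = 0.0037). *Fdps*, farnesyl diphosphate synthase, differed by 1.53 ± 0.13 (limma, adjusted p = 0.0006), and *Dhcr7*, which makes cholesterol in the last step, by 1.27 ± 0.09 (limma, adjusted p = 0.00036). *Ebp* (-0.48 ± 0.13), *Sc5d* (-0.63 ± 0.11) and *Mvd* (-0.66 ± 0.16), enzymes of the same pathway, were lower. *Srebf2*, its transcription factor, did not pass the test (0.19 ± 0.12). *Ebp* did not pass the test without pool 1, 3 or 4 (-0.46, -0.43 and -0.42). *Srebf2* passed the test without pool 2 (0.31).

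DNA methylation and chromatin genes were higher in 7 of 12 cases and lower in 2 (median 0.76), and in 6 and 2 of the 11 at 100 in both stages. The higher ones numbered 4, 8, 4 and 5 without pools 1, 2, 3 and 4 in turn. *Dnmt3b*, a de novo methyltransferase, had signals of 511, 349.6, 320.3 and 392 at DN1 and 1399, 1403, 1393 and 2154 at DN2, a difference of 2.01 ± 0.17 (limma, adjusted p = 0.00058). *Dnmt1*, the maintenance enzyme, was higher (0.90 ± 0.15). *Ezh2*, of Polycomb, was higher (1.19 ± 0.25) and its homolog in resting cells, *Ezh1*, lower (-0.60 ± 0.17). Of the enzymes that oxidise methylcytosine, *Tet2* was lower (-0.90 ± 0.17) and *Tet1* higher (2.28 ± 0.55). *Tet1* did not pass the test without pool 1, 3 or 4 (2.31, 1.83 and 2.03). *Ezh1* did not pass the test without pool 1 or 3 (-0.61 and -0.66).

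Bcl2 family genes were lower in 5 of 10 cases and higher in 2 (3 higher and 4 lower after median centring; median -0.59), and in 4 and 0 of the 7 at 100 in both stages. *Bcl2l11*, which encodes the death-promoting BIM, had signals of 933, 894, 1172 and 769.9 at DN1 and 467, 497, 584 and 362 at DN2, a difference of -0.99 ± 0.09 (limma, adjusted p = 0.00068). *Pmaip1*, which encodes the death-promoting NOXA, had signals of 58.1, 26.8, 33.3 and 72.8 at DN1 and 211, 162, 199 and 276 at DN2, a difference of 2.24 ± 0.17 (limma, adjusted p = 0.00039). The first was lower and the latter higher at DN2 without overlap. The survival genes *Mcl1* (-0.76 ± 0.12) and *Bcl2l1* (-0.83 ± 0.12) were lower, and *Bcl2* itself did not pass the test (0.15 ± 0.18).

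Immediate early genes, which cells switch on within minutes of a stimulus, were lower in 15 of 24 cases and higher in 2 (median -1.27), and in 8 and 2 of the 17 at 100 in both stages (median -1.06). *Klf2*, a factor of resting lymphocytes on the same list, had signals of 1677, 1031, 1971 and 1218 at DN1 and 113, 101, 136 and 76.4 at DN2, a difference of -3.77 ± 0.13 (limma, adjusted p = 4.3e-05). *Egr3*, a zinc-finger factor induced by receptor signals, differed by -6.71 ± 0.36 (limma, adjusted p = 0.00015), and *Nr4a1*, which encodes Nur77, by -3.30 ± 0.19 (limma, adjusted p = 0.00017). *Egr1* fell in every pool, to DN2 signals that ran from 3.62 to 102 after 336 to 726 at DN1 (-4.58 ± 0.79). *Fos*, of the AP-1 complex, was high at DN2 in pools 1 and 3 and low in pools 2 and 4, with signals of 684, 229, 559 and 258 at DN1 and 526, 36.4, 401 and 10.5 at DN2, and did not pass the test (-2.03 ± 0.74). *Jun*, its partner, was higher at DN2 in each pool with overlap between the stages (1.06 ± 0.28, limma adjusted p = 0.021). Of 23 interferon-stimulated genes 8 were lower, 2 higher and 13 not called (9 higher and 6 lower after median centring; median -0.19, and 0.22 after median centring). Before centring that is 8.70% higher and 34.8% lower, against 32.8% and 26.9% of all genes. *Ifit3* fell by a difference of -1.78 ± 0.17, and *Ifih1*, a sensor of viral RNA, rose by 1.32 ± 0.15. *Jun* did not pass the test without pool 1 (0.98).

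Ranked over all genes that were called and moved the same way in every pool, the 15 largest falls were those of *Tbx21* (-9.10), *Mcpt1* (-8.91), *Il2rb* (-8.85), *Klrc1* (-8.59), *Jag1* (-8.44), *Klk1* (-8.39), *Klre1* (-8.33), *Ncr1* (-8.06), *Ahnak* (-7.88), *Cxcr6* (-7.82), *Ikzf3* (-7.80), *Klrd1* (-7.78), *Il18r1* (-7.76), *Chil3* (-7.72) and *Lcn2* (-7.67). All 15 entered through DN1 alone, by which they had to be low at DN2. Their DN2 signals lay between 0.18 and 32.3, near the floor, so the size of these falls depends on it. With 32 added to each signal before the log2, the difference of *Tbx21* was -4.54, that of *Jag1* -4.63 and that of *Il18r1* -6.61. *Ahnak*, which encodes a very large scaffold protein and was on none of the lists, had signals of 3016, 2183, 3399 and 4126 at DN1 and 5.33, 13.4, 21.02 and 19.8 at DN2. *Lcn2*, which encodes the neutrophil protein lipocalin-2, had signals of 2216, 3659.9, 108 and 7729 at DN1 and 7.68, 21.7, 0.2 and 23.8 at DN2, with pool 3 far under the others at DN1.

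The 15 largest rises were smaller. *C1qtnf1*, a secreted relative of complement C1q, had signals of 6.52, 2.13, 0.61 and 1.04 at DN1 and 155, 170.3, 136 and 119.6 at DN2, a difference of 6.21. *Myl10*, a myosin light chain, had signals of 179.8, 70.3, 31.4 and 62.4 at DN1 and 2020.5, 1809.6, 1723 and 1843 at DN2, a difference of 4.71 ± 0.36 (limma, adjusted p = 0.00039). *Fbp1*, the gluconeogenic enzyme fructose-1,6-bisphosphatase, had signals of 377, 245, 65.1 and 120.3 at DN1 and 2562, 2965, 2809 and 2567 at DN2, a difference of 4.05 ± 0.43 (limma, adjusted p = 0.0011). In these genes and in *Epb41l4b*, of the band 4.1 family (4.46), all DN2 signals lay above those at DN1, as in 25.5% of all genes. A rise in each pool was a condition of the ranking. *Trbv13-2*, a variable segment of the T cell receptor β locus, rose, with signals of 167, 204, 37.8 and 23.5 at DN1 and 1494, 1324, 1353 and 635 at DN2, a difference of 3.94 ± 0.45 (limma, adjusted p = 0.0013). The locus is not joined productively in scid mice, and the probe set does not tell a joined from an unjoined transcript. *Capn5*, a calpain protease (4.18), *Ppic*, a cyclophilin (4.19), and *Mpzl2*, an adhesion protein of thymic cells (4.02), were higher too. The others were *Bpifc* (4.51), *Acy3* (4.48), *Art4* (4.39), *Uaca* (4.28), *Podxl* (4.23), *Klhl23* (4.23) and *Cldn2* (4.12). All of the 15 but *Epb41l4b*, *Fbp1*, *Mpzl2* and *Trbv13-2* entered through DN2 alone, by which they had to be low at DN1. For *C1qtnf1*, *Acy3* and *Art4* the DN1 signals were near the floor, and the differences were 2.35, 1.77 and 2.11 with 32 added.

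The same stages were measured in 4 control pools, and the stage difference was tested against theirs as an interaction over 16 arrays. No probe set of 14579 passed (0%, limma), and 206 (1.41%) had an unadjusted p under 0.05. Of the 8511 probe sets called in TLX1 thymocytes, 8460 (99.4%) had a control difference of the same sign. The median standard error of the difference between genotypes was 0.21, which bounds what 4 pools each can show gene by gene. Control pool 3 stood apart from the other control pools. At DN1 its summed signal of V(D)J genes was 22521, against 5855 to 7729 in the others. That of mitotic genes was 51266, against 11486 to 23116. Its 3'/5' index at DN2 was 0.99, against 0.24 to 0.44. The study's list of cohorts gives it the largest share of cells outside DN1 to DN3. Without it 0 probe sets passed and 611 had an unadjusted p under 0.05. Set side by side, list medians were -5.86 and -5.57 in TLX1 and control thymocytes for NK and cytotoxic genes, -3.19 and -2.81 for myeloid genes, 1.10 and 1.04 for DNA replication genes and 0.63 and 0.53 for V(D)J recombination. In 2 of the 30 lists other than the gate the medians had opposite signs, progenitor transcription factors at -0.13 in TLX1 and 0.23 in control thymocytes and the 3 erythroid genes at -0.08 and 0.47, and no difference between list medians was tested. The 5 genes with the smallest unadjusted p all missed the adjusted test. *Egr2*, an immediate early factor, had differences of -5.38 in TLX1 and -3.64 in control thymocytes, with DN1 signals of 102 to 260.0 and 62.6 to 157, and an interaction of -1.74 ± 0.39. *Siglech* had differences of -5.96 and -3.78, with DN1 signals of 160.1 to 402 and 159.9 to 278, and an interaction of -2.18 ± 0.48. The others were *Mtus1* (-4.07 in TLX1 and -2.75 in control thymocytes), *Exd2* (-0.52 and 0.33) and *Metrnl* (-3.75 and -5.32).

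**Figure D5:**
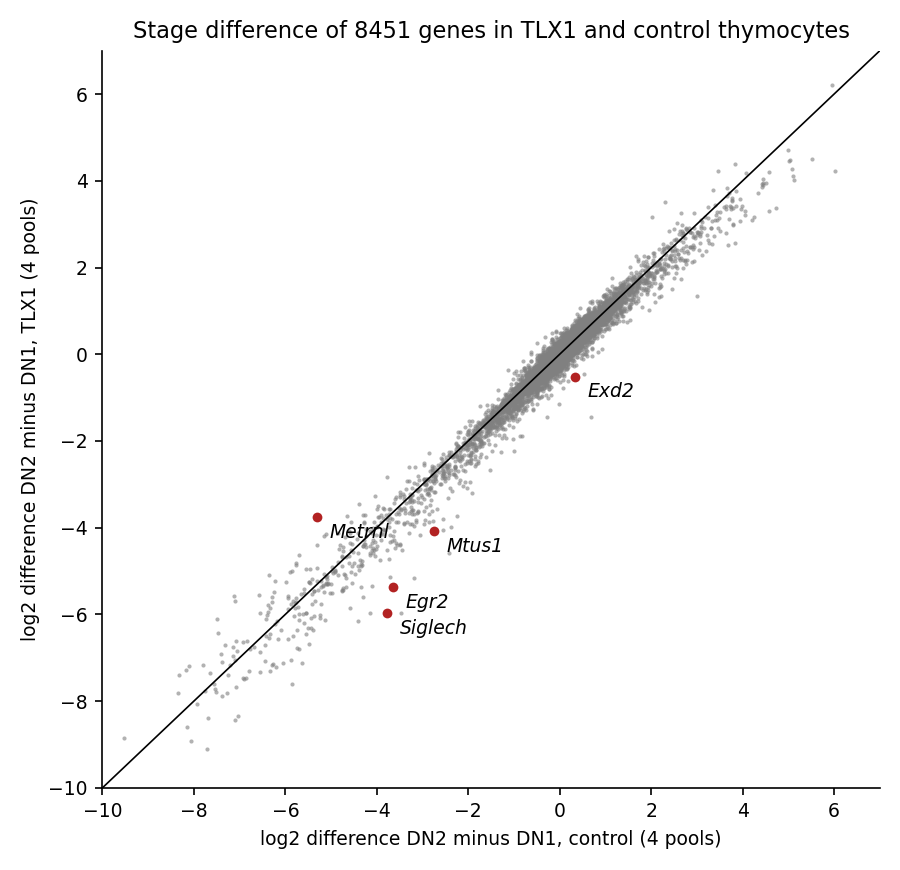
Log2 difference DN2 minus DN1 of each gene in TLX1 (y axis, 4 pools) against the same in control thymocytes (x axis, 4 pools), with the line of equality and the 5 genes of smallest p in the test between them labelled. Most genes lie along the line over the whole range, and 0 probe sets passed the test of the difference.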

How the data were processed

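The authors hybridised RNA of sorted thymocytes to 24 Affymetrix Mouse Genome 430 2.0 arrays and deposited 1 intensity per probe set, a MAS5 signal on a linear scale, each array scaled to the same trimmed mean of 150.0 (2% trimmed at each end). The version of the scaling software and the annotation are not given in the sources used here. From these deposited values, signals under 1 were set to 1 and log2 was taken, with no further normalization. Array control probe sets (64) were left out. Of the other 45037, 34945 match 1 gene in the platform annotation, 932 several and 9160 none, and a gene was named only from a probe set that matches it alone, the brightest over the 8 arrays.

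DN2 minus DN1 was fitted with limma 3.58.1 in R 4.3.3 (lmFit and eBayes) with the pool as a block, and Benjamini-Hochberg adjustment over the 14579 included probe sets, and a call is an adjusted p under 0.05. The pool numbers mark the same animals by the titles of the samples. The deviations of DN1 and DN2 arrays of the same pool from their stage means correlated at 0.44, 0.28, 0.51 and 0.67 for pools 1 to 4, each above the correlation with any other pool. The difference between TLX1 and control was the interaction of genotype and stage over 16 arrays. The fits were tested on simulated data with known changes. The number of arrays limits the precision, with correlations between replicates of 0.88 to 0.96 at DN1 and 0.93 to 0.98 at DN2. Each array stands for a pool, and with the pool as a block p-values rest on how far the difference DN2 minus DN1 varied between pools.

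Named were the gate genes, the 15 largest called differences in each direction that went the same way in every pool, members of the lists given with their counts, and the 5 genes with the smallest p in the test against controls. The members and lists were chosen with earlier results of these data known. Promoters were searched for the RBPJ letters in the 250 bases before the start. The alternatives were no replicate block, quantile normalization, median centring, no filter, a minimum of 200, a mean of 100 over all 8 arrays, an offset of 32, fits over 12 or 24 arrays, array weights, trend and robust empirical Bayes, the 3'/5' index as a covariate, leaving out each pool, and the methods' t-test. Median centring over the included probe sets was added after seeing the data. The columns of no sample numbered 0.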

Additional observations from a re-analysis of the deposited data

Results flagged for a closer look

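In 14 of 229 named genes the difference of 1 pool lay far from those of the other 3 (the gap to the nearest pool, over the whole range, exceeded Dixon's 95% critical value), and chance alone marks about 1 in 20 such groups. The pool was pool 2 in 13 of them and pool 4 in 1. Among genes with larger DN2 signals in the other pools, *Ly6d* was -0.88 in pool 2 against 2.79 to 3.38, *Xrcc6* -1.13 against 2.18 to 2.61, *Tcf12* -0.26 against 0.91 to 1.11 and *Itga6* -0.085 against 1.05 to 1.23. *E2f3* differed by 0.45 in pool 2 and by 1.42 to 1.59 in the others. *Socs2* was 1.305 in pool 2 and 0.59 to 0.66 in the others. Among falling genes, pool 2 fell less in *Ikzf3* (-6.78 against -8.24 to -8.06), *Lgals3* (-6.36 against -6.90 to -6.88), *Cd28* (-3.50 against -3.85 to -3.82), *Cd44* (-3.48 against -4.01 to -3.99), *Lfng* (-0.99 against -1.50 to -1.45) and *Jak3* (-0.28 against -1.28 to -1.20), and more in *Ccnd3* (-0.97 against -0.48 to -0.41). *Slc2a3* was -1.998 in pool 4 and -1.21 to -1.11 in the others.

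The share of probe sets with a signal under 1 was 5.05% on DN1 of pool 4 and 7.75% to 7.98% on the other DN1 arrays.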

How the results depend on the processing

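Against 4487 higher and 4024 lower probe sets, median centring gave 8139 and 2274, no filter 2328 higher, the index covariate 0 and 34, and the methods' thresholds 2991 higher. Leaving out 1 pool gave 2726 to 4823 higher and 2943 to 4379 lower. Without the replicate block, that is unpaired, 3475 were higher and 3143 lower. With equal groups the differences themselves cannot change there, and 14 of 229 named genes lost their call (*Ccnd3*, *Cxcr4*, *Exd2*, *Fyn*, *Gata3*, *Il17rb*, *Itga4*, *Itga6*, *Jak3*, *Jun*, *Lef1*, *Pecam1*, *Pfkl* and *Thy1*). The methods' t-test called 3201 and 2963 after Benjamini-Hochberg. All other alternatives were within 1.5 times. No probe set passed the test against controls under any alternative, and 77 to 1804 had an unadjusted p under 0.05. Without control pool 3 that number was 611, against 206.

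With the index as a covariate these differences changed sign, none of them past the threshold: *Aurkb* -0.26, *Csf1r* 0.39, *Csf3r* 0.87, *E2f1* -0.41, *Egr1* 2.88, *Ezh1* 0.54, *H2-Ob* -0.17, *Il17rb* -0.75, *Itga4* -0.43, *Lyz2* 2.62, *Mvd* 0.57, *Pcna* -0.0017, *Pecam1* -0.16, *Slc2a3* 0.058 and *Spi1* 1.18. Median centring turned *Itgav* to 0.32, *Rfng* to 0.091 and the median of interferon-stimulated genes to 0.22. Without a filter the median of the stroma list was -0.49, with 17 more genes in it. A gene counted as unchanged where its call stayed and no called difference changed sign. Counts had to stay within 1.5 times, list medians within the SD of that median between pools, and the index had to keep its sign. By these rules 3829 of 4286 values under alternatives were unchanged. The cause of the others was not tested, beyond fewer pools or genes in a fit. Signals near the floor of 1 limit the size of the largest differences. The 3'/5' index rose by 0.26 for *Actb* alone and by 0.06 for *Gapdh* alone.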

Other observations

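The next stage, DN3, was measured in the same TLX1 pools, and its signals are given here for genes that were higher at DN2 than at DN1, with no test. *Lyl1* had signals of 746 to 929.9 at DN2 and 95.1 to 144 at DN3. *Nfe2* had 1191 to 1533 and 763 to 989, *Cpa3* 1411 to 1630.5 and 289.8 to 385, and *Cldn2* 248 to 313 and 38.5 to 55.9. In these 4 genes every DN3 signal lay under every DN2 signal, and the share of all genes that did so was not counted. *Cd3g* had 5335 to 6118 at DN2 and 4666 to 6648 at DN3 and *Ptcra* 442 to 859 and 1764 to 2399.9. *Hes1* had 343 to 739.6 and 561 to 1025, and *Erg* 366 to 731 and 391 to 750.0. Among genes that were lower at DN2 than at DN1, *Id2* had 112 to 166 at DN2 and 124 to 173 at DN3, and *Gzma* 2465 to 2815 and 2013 to 2693. *Rag1*, whose difference between DN2 and DN1 did not pass the test, had 1158 to 1412 and 2170.4 to 3161.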
